A study of Homo sapiens with 4 samples.

Results

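CXCR4, the second CXCL12 receptor ACKR3 and 8 chemokine genes were examined in wild-type (WT) cells and in ZCCHC4 KO1 cells, all labelled HepG2. The 10 genes (CXCR4, ACKR3, CXCL12, CXCL1, CXCL2, CXCL3, CXCL8, CXCL5, CCL2 and CCL20) were taken by symbol out of the 16658 genes of the expression table. They were chosen by gene family with their FPKM values in WT and ZCCHC4 KO1 already known, so the difference between these groups is described for them without a test. Of the 10 genes, 9 had a row in the table. CXCL1 had no row in the table used here.

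RNA-seq was performed on 4 libraries, 2 of WT cells and 2 of ZCCHC4 KO1 cells. Both groups were labelled HepG2, a line from a human liver tumor, although hepatocyte markers were near 0 in every library (values at the end), were untreated, and were grown to near confluence in DMEM with FBS. The ZCCHC4 KO1 cells carried a CRISPR/Cas9 knockout of ZCCHC4, a methyltransferase of rRNA, and were 1 of several knockout lines of the study, so effects of the knockout and of the line cannot be told apart. The study's guide for ZCCHC4 was gaatgggtttgaagccgtgg. It matched the plus strand of GRCh38 once on chromosome 4, from 25312824 to 25312843, in the coding sequence of exon 1 and followed by AGG. The FPKM of ZCCHC4 was 7.22 and 5.44 in WT against 1.08 and 2.29 in ZCCHC4 KO1, so RNA from the targeted gene was lower in both knockout libraries (log2 difference -1.48, standard error 0.287, adjusted p = 0.0448 from limma). This call was lost on leaving out the first ZCCHC4 KO1 library (-1.15), on adding 0.1 rather than 1 to the FPKM (-1.92) and on testing all genes unfiltered.

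CXCR4 is a G protein-coupled receptor whose ligand CXCL12 guides the migration of cells, in development and in tumors. ACKR3 binds CXCL12 too, but removes it from the surroundings and recruits beta-arrestin rather than activating G proteins. CXCL1, CXCL2, CXCL3, CXCL5 and CXCL8 attract neutrophils through CXCR1 and CXCR2, CCL2 attracts monocytes through CCR2, and CCL20 attracts lymphocytes and dendritic cells through CCR6. Many of these ligands are induced by inflammatory signals through the transcription factor NF-κB, whereas CXCR4 is known as a target of hypoxia-inducible factors.

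The sequences before the transcription start were read as well, and the regulators looked at below were not picked from them. RefSeq promoters (GRCh38.p14) were found for 8 of the 10 genes, with ACKR3 and CCL2 not among them, and the 250 bases before the start were read from the gene strand. Those of CXCR4, which carried the largest difference, and of 3 ligands are shown. Capitals mark matches, on either strand, to the GC box GGGCGG, the motif of the factor NRF1, the TATA box TATAAA and the NF-κB consensus GGGRNWYYCC. In this consensus R is A or G, N is any base, W is A or T, and Y is C or T. Adjoining or overlapping matches form 1 run of capitals.
CXCR4: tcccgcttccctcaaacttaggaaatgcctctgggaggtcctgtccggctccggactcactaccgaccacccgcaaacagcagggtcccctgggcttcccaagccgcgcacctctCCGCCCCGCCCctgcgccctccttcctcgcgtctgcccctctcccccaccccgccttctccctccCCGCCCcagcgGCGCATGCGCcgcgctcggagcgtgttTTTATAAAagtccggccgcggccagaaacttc
CXCL2: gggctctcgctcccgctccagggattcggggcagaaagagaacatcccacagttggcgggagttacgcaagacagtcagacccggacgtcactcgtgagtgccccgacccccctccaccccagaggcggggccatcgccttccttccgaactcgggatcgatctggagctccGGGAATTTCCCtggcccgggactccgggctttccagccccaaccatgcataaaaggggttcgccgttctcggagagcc
CXCL3: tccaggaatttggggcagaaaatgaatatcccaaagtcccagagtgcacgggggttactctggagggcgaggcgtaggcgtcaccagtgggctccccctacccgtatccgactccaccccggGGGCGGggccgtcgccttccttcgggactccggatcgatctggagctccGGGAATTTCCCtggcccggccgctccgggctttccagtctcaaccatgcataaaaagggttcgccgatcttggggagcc
CXCL8: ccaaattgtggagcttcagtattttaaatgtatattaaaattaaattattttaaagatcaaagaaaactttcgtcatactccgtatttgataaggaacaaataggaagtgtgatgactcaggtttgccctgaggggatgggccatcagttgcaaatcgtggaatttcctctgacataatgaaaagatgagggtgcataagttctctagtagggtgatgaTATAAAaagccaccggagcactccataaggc

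The sequence of CXCR4 lies on chromosome 2 from 136118150 to 136118399, on the minus strand. Those of CXCL2 (74099196 to 74099445, minus strand), CXCL3 (74038690 to 74038939, minus strand) and CXCL8 (73740319 to 73740568, plus strand) lie on chromosome 4. In CXCR4, 68.0% of the bases were G or C and 24 CG dinucleotides were counted, more than in 76.9% of the 27305 genes with a promoter. The CXCR4 sequence held 3 GC boxes, of which 2 shared a base, a motif present in 42.2% of all these sequences, and the NRF1 motif, present in 1.13%. Its 2 TATA box matches, 1 on each strand, overlapped (a motif in 11.2% of sequences), and it held the hypoxia-response core GCGTG once (31.9% of sequences, not capitalized above) but not ACGTG (18.6%). The NF-κB consensus was found in 5.07% of all sequences and in 5 of the 8 members with a sequence, namely CXCL1, CXCL2, CXCL3, CXCL5 and CCL20. The CXCL8 sequence holds tggaatttcc, which departs from the consensus in its first letter and was not counted. Sites that depart from the consensus were not searched for, so no match does not mean no site. In CXCL1, CXCL2, CXCL3 and CXCL5 the matches on the gene strand and on the opposite strand overlapped. CXCL8 was at 37.6% G or C with 4 CG dinucleotides, fewer than in CXCR4. A match is a match of letters and no measure of binding.

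CXCR4 and ACKR3, the pair of CXCL12 receptors, were at moderate to high levels in WT cells and at low levels in ZCCHC4 KO1 cells. CXCR4 (chromosome 2, 136114349 to 136118149) was at FPKM 41.36 and 39.56 in the WT libraries and at 0.18 and 0.09 in the ZCCHC4 KO1 libraries. FPKM scales fragments to transcript length and to the mapped fragments of the library. It does not correct for GC content, with which replicates deviated (below), so levels compare only roughly between genes. Both WT values of CXCR4 were far above both ZCCHC4 KO1 values. The WT replicates lay close together, while the ZCCHC4 KO1 values were near 0 and differed more in proportion. The mean FPKM of CXCR4 was 40.5 ± 1.27 (SD, n = 2) in WT against 0.135 ± 0.0636 (SD, n = 2) in ZCCHC4 KO1, a ratio of means of 299.7. The size of this ratio is uncertain, since its lower value is near 0. By mean level CXCR4 lay above 86.9% of the genes of the table in WT and above 23.3% in ZCCHC4 KO1.

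ACKR3, also on chromosome 2 (236537122 to 236582354), was at FPKM 10.79 and 12.81 in WT against 0.59 and 0.68 in ZCCHC4 KO1. The groups of ACKR3 values did not overlap either, and no ZCCHC4 KO1 value reached an FPKM of 1. Its mean FPKM was 11.8 ± 1.43 (SD, n = 2) in WT against 0.635 ± 0.0636 (SD, n = 2) in ZCCHC4 KO1, a ratio of 18.6. The order of the 2 receptors turned over, but both were under an FPKM of 1 in ZCCHC4 KO1, so their ratio there is uncertain. The FPKM of CXCR4 was 3.83 and 3.09 times that of ACKR3 in the WT libraries and 0.305 and 0.132 times that of ACKR3 in the ZCCHC4 KO1 libraries. In RNA from whole cultures, fewer cells that express a gene and less RNA per cell cannot be told apart.

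Their common ligand CXCL12, on chromosome 10, was close to the bottom of the table. It was listed at FPKM 0 in both WT libraries and at 0.02 and 0 in the ZCCHC4 KO1 libraries, so no difference could be seen at this level. CXCL12 therefore stood below both of its receptors in WT.

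The 4 listed neutrophil-attracting ligands, which lie close to each other on chromosome 4, were under an FPKM of 1 in each library. CXCL2 was at FPKM 0.78 and 0.41 in WT against 0.21 and 0.28 in ZCCHC4 KO1, with both ZCCHC4 KO1 values below both WT values. CXCL3 was at 0.23 and 0.34 in WT against 0.36 and 0.30 in ZCCHC4 KO1, and its groups overlapped. CXCL8 was at 0.03 and 0.09 in WT and listed at 0 in both ZCCHC4 KO1 libraries. CXCL5 was listed at 0 in both WT libraries and at 0.02 and 0 in ZCCHC4 KO1. The FPKM of these 4 genes summed to 1.04 and 0.84 in WT against 0.59 and 0.58 in ZCCHC4 KO1. CXCL2 and CXCL3 are close relatives of each other and of CXCL1, reads could be divided differently among them, and their single values are uncertain.

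Of the CC chemokines, CCL2 was expressed in both groups and CCL20 in neither. CCL2, on chromosome 17 (34255285 to 34257203), was at FPKM 9.42 and 8.71 in WT against 4.23 and 5.52 in ZCCHC4 KO1. Both ZCCHC4 KO1 values were below both WT values, with means of 9.07 ± 0.502 (SD, n = 2) and 4.88 ± 0.912 (SD, n = 2), a ratio of 1.86. CCL20 was listed at 0 in both WT libraries and at 0.06 and 0 in ZCCHC4 KO1.

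Of the 9 listed genes, 5 had both ZCCHC4 KO1 values below both WT values (CXCR4, ACKR3, CXCL2, CXCL8 and CCL2), 0 had both above, and 4 overlapped or were tied. Among all 16658 listed genes, 24.4% had both ZCCHC4 KO1 values below both WT values. Since the genes were chosen with these values known, nothing is read from the count. In WT the order of mean FPKM was CXCR4, ACKR3, CCL2, CXCL2, CXCL3 and CXCL8, followed by CXCL12, CXCL5 and CCL20 at 0. ACKR3 and CCL2 were next to each other without overlap (10.79 to 12.81 against 8.71 to 9.42), as were CXCL2 and CXCL3 (0.41 to 0.78 against 0.23 to 0.34). In ZCCHC4 KO1 the order began with CCL2, the only 1 of the 9 at an FPKM of 1 or more in both libraries, followed by ACKR3. CXCL3, CXCL2 and CXCR4 came next, and CXCL3 (0.30 to 0.36) and CXCL2 (0.21 to 0.28) were close to each other.

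Across all genes, log2(FPKM + 1) was compared with limma for the 10726 genes with an FPKM of at least 1 in at least 2 libraries. Genes were called at an adjusted p below 0.05 and a difference of at least 2-fold on this scale, which understates the change of genes at low levels. By this rule 3.25% of the tested genes were lower in ZCCHC4 KO1 and 0.932% higher, or 4.19% in either direction. Nothing in the labels says that the 2 libraries of a group came from separate cultures, so p-values measure the spread between these libraries, which may be technical. CXCR4, ACKR3 and CCL2 entered this comparison, CXCR4 and ACKR3 through their WT libraries alone, and for them only the size of the difference is given. The log2 difference was -5.19 (standard error 0.187) for CXCR4, the 3rd lowest of all tested genes, -2.96 (standard error 0.198) for ACKR3, the 18th lowest, and -0.78 (standard error 0.206) for CCL2. CCL2 was the 709th lowest. Adding 0.1 rather than 1 to the FPKM gave a log2 difference of -7.46 for CXCR4 and -4.01 for ACKR3. Replicates of a group deviated from each other with transcript GC content, and with that trend removed the log2 differences were -5.17 for CXCR4, -2.93 for ACKR3 and -0.70 for CCL2.

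**Figure D1:**
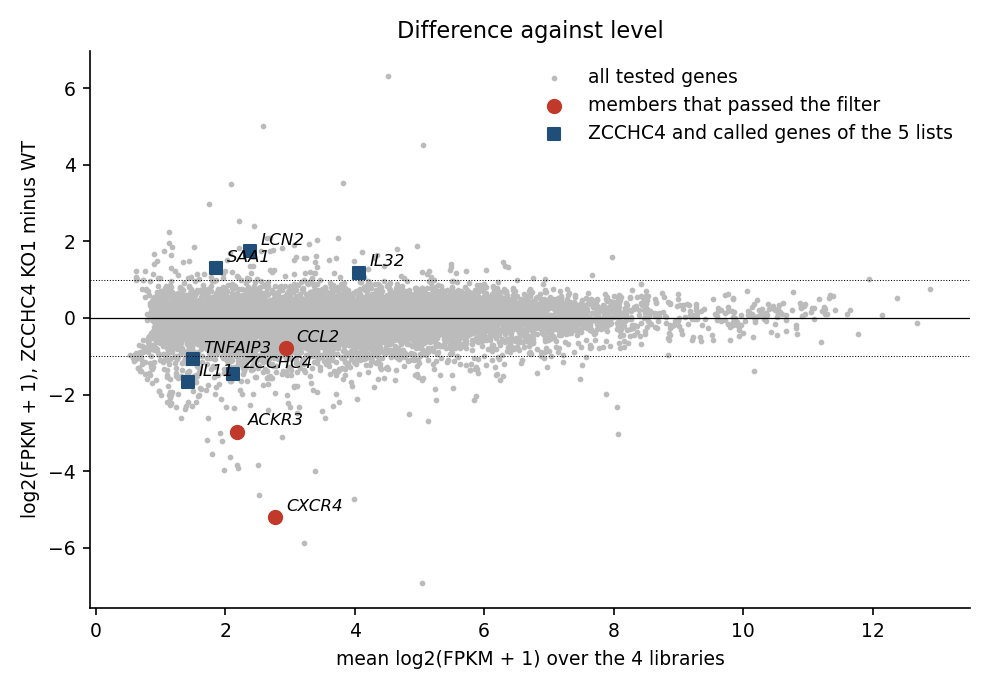
Log2(FPKM + 1) in ZCCHC4 KO1 minus WT (vertical axis) against the mean over the 4 libraries (horizontal axis) for the 10726 tested genes in gray, with the members in red, ZCCHC4 and the called genes of the 5 lists as blue squares, and dotted lines at a 2-fold difference. CXCR4 at -5.19 and ACKR3 at -2.96 lie far below the bulk of genes of the same level, and CCL2 at -0.78 lies within the dotted lines.

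The rest of the chemokine family gave few tested genes and no call. Of 39 other ligands, 12 had a row and 4 were tested, and of 24 other receptors and co-receptors 11 had a row and 1 was tested. That 1 was GPER1, an estrogen-binding receptor, so no other classical chemokine receptor was tested. By limma 0 of these 5 genes were called, while CXCL16 and GPER1 had an unadjusted p under 0.05, both higher in ZCCHC4 KO1. CXCL16, a membrane-bound chemokine that binds CXCR6, was at FPKM 15.21 and 16.66 in WT against 32.52 and 29.65 in ZCCHC4 KO1. Its log2 difference of 0.92 (standard error 0.151, adjusted p = 0.0286 from limma) passed the p threshold but was under 2-fold, so CXCL16 was not called. Its groups did not overlap. MIF, a cytokine that can bind CXCR4, was the most abundant gene of this family, at 976.7 and 1146.69 in WT against 1047.23 and 785.02 in ZCCHC4 KO1, with overlapping groups. CCL5 overlapped as well, at 3.63 and 3.17 in WT against 3.29 and 5.23 in ZCCHC4 KO1. The highest FPKM of any untested receptor in any library was 0.53. CXCR2, a receptor of the neutrophil-attracting ligands, was at 0.15 to 0.20 and CCR6, the receptor of CCL20, at 0.13 to 0.18.

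Genes that carry the signal from CXCR4 or move the receptor within the cell were mostly expressed in both groups. Of 64 such genes 50 were tested and limma called 0 of them, beside 4.19% of all tested genes. Their median log2 difference was -0.14, against -0.03 over all tested genes. In this list 12 genes had both ZCCHC4 KO1 libraries below both WT libraries and 7 had both above, beside 28.5% and 23.1% of all tested genes. An unadjusted p under 0.05 from limma was found for 6 lower genes and 1 higher gene, none of which passed after adjustment. GNAI2, the inhibitory G protein subunit that couples to CXCR4, was at FPKM 77.14 and 86.07 in WT against 76.88 and 71.31 in ZCCHC4 KO1. The beta-arrestin gene ARRB2 was at 63.06 and 67.44 in WT against 84.12 and 71.71 in ZCCHC4 KO1, with an adjusted p = 0.367 from limma. The lowest adjusted p of this list was that of ADM, whose peptide hormone is also bound by ACKR3. ADM was at 15.62 and 16.03 in WT against 9.30 and 7.87 in ZCCHC4 KO1 (log2 difference -0.82, adjusted p = 0.0575 from limma). RGS2, a brake on G protein signaling, had the lowest log2 difference of the list, also -0.82 (adjusted p = 0.109 from limma). Without ZCCHC4 KO1 replicate 2, 2 genes of this list were called.

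Of 43 genes that regulate transcription or RNA stability of the members, 40 were tested and 1 was called. That is 2.5%, beside 4.19% of all tested genes. TNFAIP3, an NF-κB target whose protein limits NF-κB signaling, was at FPKM 3.61 and 2.65 in WT against 0.82 and 1.11 in ZCCHC4 KO1. It fell by 1.07 on the log2 scale (standard error 0.211, adjusted p = 0.046 from limma). TNFAIP3 passed the filter on low values through its WT libraries, so its call is no support for a difference of the list. This call was lost on leaving out the first WT library (-0.90) or the first ZCCHC4 KO1 library (-0.96), with quantile normalization (also -0.96), with no filter and with the replicate number as a block. FOSL1, an AP-1 subunit, was higher at less than 2-fold, from 25.32 and 24.91 in WT to 45.56 and 39.87 in ZCCHC4 KO1 (log2 difference 0.74, adjusted p = 0.0443 from limma). The related gene FOSL2 differed the other way, at 41.15 and 41.66 in WT against 25.71 and 27.42 in ZCCHC4 KO1. Its log2 difference was -0.62 (adjusted p = 0.0575 from limma), which did not pass. The NF-κB subunit RELA was at 46.92 and 53.96 in WT against 73.22 and 63.33 in ZCCHC4 KO1 (log2 difference 0.43, adjusted p = 0.161 from limma), a difference that did not pass. HIF1A was at 61.04 and 27.21 in WT against 38.14 and 70.77 in ZCCHC4 KO1, and its replicates differed more than its groups. EPAS1, the second hypoxia-inducible factor, was at 17.31 and 18.24 in WT against 11.57 and 12.43 in ZCCHC4 KO1 (log2 difference -0.53, adjusted p = 0.120 from limma). The groups of EPAS1 did not overlap. NRF1, whose motif the CXCR4 sequence held, was at 7.58 and 8.76 in WT against 8.9 and 9.26 in ZCCHC4 KO1. Its log2 difference was 0.14 (adjusted p = 0.716 from limma), which did not pass. The median log2 difference of the list was 0.02. In this list 12 genes had both ZCCHC4 KO1 libraries below both WT libraries and 14 had both above, beside 28.5% and 23.1% of all tested genes.

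Of the inflammatory cytokines and other targets of NF-κB, 4 tested genes were called and 11 were not. Of 44 such genes 38 had a row and 15 were tested, and limma called 1 lower and 3 higher, or 26.7% of the tested ones beside 4.19% of all tested genes. IL11, a cytokine of the IL-6 family, was at FPKM 3.93 and 3.74 in WT against 0.42 and 0.60 in ZCCHC4 KO1, and fell by 1.68 on the log2 scale (adjusted p = 0.0108 from limma). IL11 passed the filter on low values through its WT libraries alone, so its call and its part in the 26.7% are no support for a difference of the list. LCN2, which binds iron-carrying siderophores, was at 1.75 and 1.97 in WT against 8.49 and 8.74 in ZCCHC4 KO1 (log2 difference 1.75, adjusted p = 0.0108 from limma). The acute-phase gene SAA1 rose from 1.34 and 1.29 to 4.12 and 5.35 (log2 difference 1.30, adjusted p = 0.0257 from limma), although reads could be divided differently between SAA1 and its close copy SAA2. The cytokine gene IL32 rose from 10.08 and 10.13 to 21.47 and 27.33 (log2 difference 1.18, adjusted p = 0.0249 from limma). In none of these 4 genes did the groups overlap. The SAA1 call was lost without WT replicate 1 (1.32), and the calls of SAA1 and IL32 were lost with no filter. IL11 and SAA1 were not tested at a minimum FPKM of 5. None of the 4 calls held at an adjusted p below 0.001 from limma. The median log2 difference of the list was 0.07. Among its untested genes, the cyclooxygenase gene PTGS2 was at 1.57 and 0.85 in WT against 0.03 and 0.07 in ZCCHC4 KO1, and IL6 was at 0.33 and 0.57 in WT against 0.09 and 0.10 in ZCCHC4 KO1. The adhesion gene ICAM1 was at 0.15 and 0.13 in WT against 0.76 and 0.96 in ZCCHC4 KO1. PTGS2, IL6 and ICAM1 were named after their values were seen.

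Of the 20 tested genes nearest to CXCR4 on chromosome 2, 10 on each side, 2 were called lower and 18 did not pass. Among all tested genes 3.25% were called lower. A log2 difference below 0 was found for 18 of the 20, with a median of -0.44, beside 53.2% of all tested genes, with a median of -0.03. The 2 called genes were MCM6, a subunit of the replicative helicase, and KYNU, an enzyme of tryptophan breakdown. Their log2 differences were -1.26 and -2.69, and both were named after their values were seen. HNMT, the nearest listed gene on the right, was at FPKM 2.65 and 2.13 in WT against 2.45 and 2.95 in ZCCHC4 KO1, and its groups overlapped. COPS8, the nearest listed gene on the right of ACKR3, was at 22.97 and 19.74 in WT against 12.36 and 19.54 in ZCCHC4 KO1. Around ACKR3 12 of 20 neighbors were below 0 with a median of -0.03, and around CCL2 9 of 20 with a median of 0.02, with 0 called by limma in either place. The part of the surroundings in the value of CXCR4 was not tested.

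**Figure D2:**
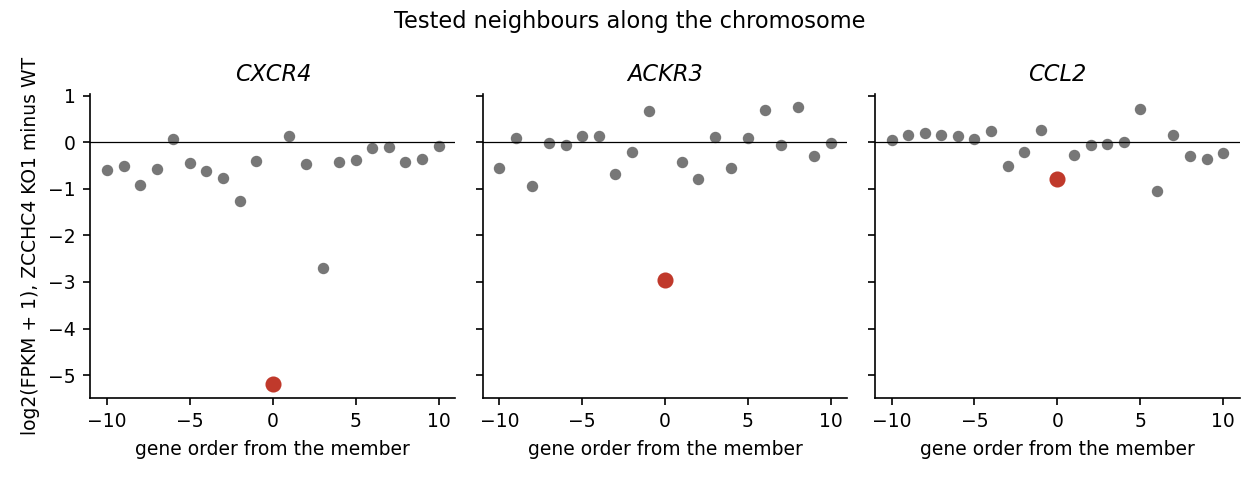
Log2(FPKM + 1) in ZCCHC4 KO1 minus WT for CXCR4, ACKR3 and CCL2 (red) and for the nearest 20 tested genes of each (gray), placed by gene order along the chromosome. The neighbors of CXCR4 lie mostly below 0, at a median of -0.44, while CXCR4 is at -5.19.

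The genes whose pattern was most like that of CXCR4 were found by the Euclidean distance of log2(FPKM + 1) over the 4 libraries. SLC2A3, a glucose transporter on chromosome 12, was nearest (distance 0.760), at FPKM 28.43 and 26.82 in WT against 0.17 and 0.15 in ZCCHC4 KO1. The protease inhibitor SPINK6 on chromosome 5 (1.17), the tetraspanin TSPAN8 on chromosome 12 (1.47), the insulin-like peptide INSL4 on chromosome 9 (1.73) and the alkaline phosphatase ALPI on chromosome 2 (1.74) followed. Their log2 differences ran from -5.86 for SPINK6 to -3.84 for TSPAN8. ALPI has near-identical copies, so its values are uncertain. With 4 libraries in 2 groups, any gene high in WT and near 0 in ZCCHC4 KO1 comes out as near.

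Markers of other cell types that express chemokine receptors were checked beside these results. The leukocyte markers PTPRC, ITGAM and SPI1 were at FPKM 0.12 or less in every library. CD14 was at 0.24 and 0.19 in WT against 0.32 and 0.34 in ZCCHC4 KO1, and LYZ at 1.07 and 0.92 in WT against 1.05 and 0.65 in ZCCHC4 KO1. CD68, which many other cells express too, was the highest of 6 listed leukocyte markers at 14.72 and 16.74 in WT against 11.90 and 11.71 in ZCCHC4 KO1. The leukocyte list summed to between 16.15 and 17.96 in WT and to between 12.79 and 13.36 in ZCCHC4 KO1. The 5 endothelial markers, each under an FPKM of 1, summed to 0.75 and 0.65 in WT against 0.33 and 0.37 in ZCCHC4 KO1. This came mainly from CDH5, at 0.55 and 0.48 in WT against 0.17 and 0.20 in ZCCHC4 KO1. PECAM1 was at 0.19 and 0.14 against 0.10 and 0.14, so its groups were tied, and VWF, KDR and TEK were at 0.05 or less. Hepatocyte markers went against the label of the line, since 0 of 4 listed markers of 10, among them AFP, SERPINA1 and HNF4A, reached an FPKM of 1 in any group, with sums from 0.09 to 0.13. Of 6 listed epithelial markers, only the keratins KRT7, KRT8 and KRT18 were high, at 1294.42 or more in all 4 libraries. EPCAM was at 0.03 or less, KRT19 at 0.11 or less and CDH1 at 0.6 or less in every library. The part of the lower CD68 and CDH5 levels in the receptor values was not tested.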

How the data were processed

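RNA-seq libraries of WT cells and ZCCHC4 KO1 cells were compared, 2 per group. The deposited values are FPKM per gene, which the authors derived with RSEM from Bowtie2 alignments on GRCh38. Versions, gene annotation and read filters are not given in the sources used here. The methods name the BGISEQ-500 platform and the labels an Illumina HiSeq. FPKM values hold no read totals, so the depth is unknown, no counting error is given, and the precision rests on 2 libraries per group. The values summed to between 512417.0 and 565198.6 per library.

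Entrez identifiers were matched to RefSeq symbols (GRCh38.p14) for 16384 of 16658 genes. Genes with an FPKM of at least 1 in at least 2 libraries were compared on the log2(FPKM + 1) scale (limma 3.58.1, R 4.3.3, lmFit, eBayes with trend, two-sided, Benjamini-Hochberg adjustment over 10726 genes). No count model was applied to FPKM. The study gives an FDR of 0.001. An adjusted p below 0.05 was used here because few genes passed 0.001, and 0.001 was an alternative. The method was tested on simulated data. GC content came from the longest GENCODE v44 transcript and covered 98.4% of tested genes.

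The members, the lists, the threshold and the rules were chosen with earlier results of these data known. Beside the members, the genes named are ZCCHC4, up to 5 called genes of each list with the smallest p and no overlap between groups, cell type markers, the 5 genes nearest to CXCR4 in pattern, and the nearest listed gene on each side of the members, of which some are not reported here; any other list gene was picked with its values in view. The rule's 3 genes nearest to the most abundant member are again those of CXCR4. Alternatives were another pseudocount, filter, scaling, GC correction, FDR, a replicate block, and leaving out each library; a crossed pairing was added after seeing the data.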

Additional observations from a re-analysis of the deposited data

How the results depend on the processing

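Counts of genes lower and higher in ZCCHC4 KO1 (349 and 100) were within 1.5 times of these under a pseudocount of 0.1, a minimum FPKM of 5, median-ratio scaling, quantile normalization, removal of the GC trend and the replicate block, but were 181 and 50 with no filter and 6 and 2 at an adjusted p below 0.001. Median-ratio scaling gave 350 lower and 143 higher genes. Leaving out each library in turn, with the lone library of a group assumed to vary like the others, gave from 265 to 550 lower and from 91 to 151 higher genes, the highest counts without ZCCHC4 KO1 replicate 2. With the replicate block 319 genes were lower and 90 higher. The labels share only replicate numbers, and the differences of replicate 2 from replicate 1 in WT and in ZCCHC4 KO1 had a Pearson correlation of -0.787 across genes. With the crossed pairing 412 were lower and 116 higher.

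The signs of the log2 differences of CXCR4 (from -7.46 to -5.00), ACKR3 (from -4.01 to -2.81) and CCL2 (from -0.94 to -0.63) were the same under the 12 alternatives run. The filters, the replicate block and the crossed pairing cannot change these differences. Leaving out a library cannot reverse groups that do not overlap. The shared signs were thus largely fixed beforehand and are no support for these differences. Called signaling genes stayed at 0 except without ZCCHC4 KO1 replicate 2, and ranged from 0 to 2 over the libraries left out. Called transcription regulators, 1 in the report, were 0 with no filter, a minimum FPKM of 5, quantile normalization, the replicate block and an adjusted p below 0.001, and from 0 to 2 over the libraries left out. The loss with the block was that of TNFAIP3. Called inflammatory genes, 4 in the report, were 2 with no filter, 2 with a minimum FPKM of 5, 0 at an adjusted p below 0.001 and from 3 to 4 over the libraries left out. Calls of other ligands and receptors stayed at 0 under each alternative. ZCCHC4 lost its call with a pseudocount of 0.1, with no filter and without ZCCHC4 KO1 replicate 1 (-1.15). The stricter minimum left fewer genes to test; the cause of the other changes was not tested.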

Other observations

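Among the marker genes, which belong to no comparison above, the fibroblast list moved unevenly. DCN, a matrix proteoglycan, was at FPKM 0.91 and 0.82 in WT and listed at 0 in both ZCCHC4 KO1 libraries, and PDGFRB was at 1.94 and 2.0 in WT against 1.25 and 1.23 in ZCCHC4 KO1. LUM was at 1.86 and 1.39 in WT against 1.81 and 3.79 in ZCCHC4 KO1, and COL1A2 was at 0.01 or less in each library. The endothelial cadherin CDH5 was at 0.55 and 0.48 in WT against 0.17 and 0.20 in ZCCHC4 KO1, while KDR and TEK were at 0.02 or less.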
